A study of Rattus norvegicus with 19 samples.

Results

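The livers of male Wistar rats fed a high protein diet were compared with the livers of rats fed a control diet, over every gene the arrays measured. All arrays titled HP (6 rats) and all arrays titled Control (7 rats) were used, 13 of the 19 arrays of the study. The remaining 6 carried livers of rats on a high fat diet, which entered the estimate of the spread and are given beside some results. The rats were 8 weeks old at the start and received their diet for 4 months. Carbohydrate gave 70% of the energy of the control diet, fat 10% and protein 20%. In the high protein diet, carbohydrate and protein supplied 45% each and fat 10%, and the protein was mainly casein, the major milk protein. In the high fat diet, carbohydrate supplied 20%, fat 60% and protein 20%. The animals were housed singly and killed early in the morning without fasting. Each array held the RNA of 1 rat, labelled with Cy5, and a liver RNA pool of equal parts labelled with Cy3. A value below is therefore log2 of the rat over the pool: 0 is the level of the pool, and a difference of 1 is a 2-fold difference. The title of the series calls the intake isocaloric. Protein replaced carbohydrate between these 2 diets, so more protein and less carbohydrate cannot be told apart.

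The liver takes up most amino acids that arrive from the gut and burns those not needed for protein. Aminotransferases move the amino group of an amino acid onto a keto acid, dehydratases and glutaminase release it as ammonia, and the urea cycle joins ammonia and aspartate nitrogen into urea. The carbon skeletons go to glucose, ketone bodies or the citric acid cycle. These enzymes are concentrated in hepatocytes around the portal vein, and a diet rich in protein is known to raise several of them in rat liver.

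On the 13 arrays, 54.2% to 67.5% of spots were well above background in Cy5, and their number limits the precision. The library labelled control 6 stood apart: the standard deviation of its log ratios was 0.45, against 0.20 to 0.26 for the other 12. Its median over 9 measured lymphocyte markers was 2.26, against -0.69 to -0.35 in the other control and high protein livers. None of these 9 markers passed the test between the diets. Markers of hepatocytes showed no such gap, with array medians from 0.11 to 0.36 in control and from 0.22 to 0.41 in high protein livers. In whole tissue, fewer cells of a type and less RNA per cell cannot be told apart. The part of the lymphocyte signal in the results below was not tested. The overall count, the amino acid count and each list median below that moved by over 1.5 times are also given without control 6.

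In the high protein livers 61 features were higher and 31 lower than in the control livers. A feature is a named gene or a probe with no gene name, and a call is an adjusted p under 0.05 by limma's moderated test with Benjamini-Hochberg adjustment over all 22265 features. The calls are 0.413% of the features tested, 0.274% higher and 0.139% lower. At an unadjusted p under 0.05 there were 3183 features, 14.3% of all. Of the 92 calls 58 had a gene name, 46 higher and 12 lower. Just 9 calls exceeded a 2-fold difference, and the median size of a called difference was 0.44. Over all features the median difference was -0.0097, with 5% of features below -0.28 and 5% above 0.19. The 6 high protein livers all lay above the 7 controls for 111 features (0.499%) and all below them for 63 (0.283%), and 62 of the 92 calls were of these 2 kinds.

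**Figure D1:**
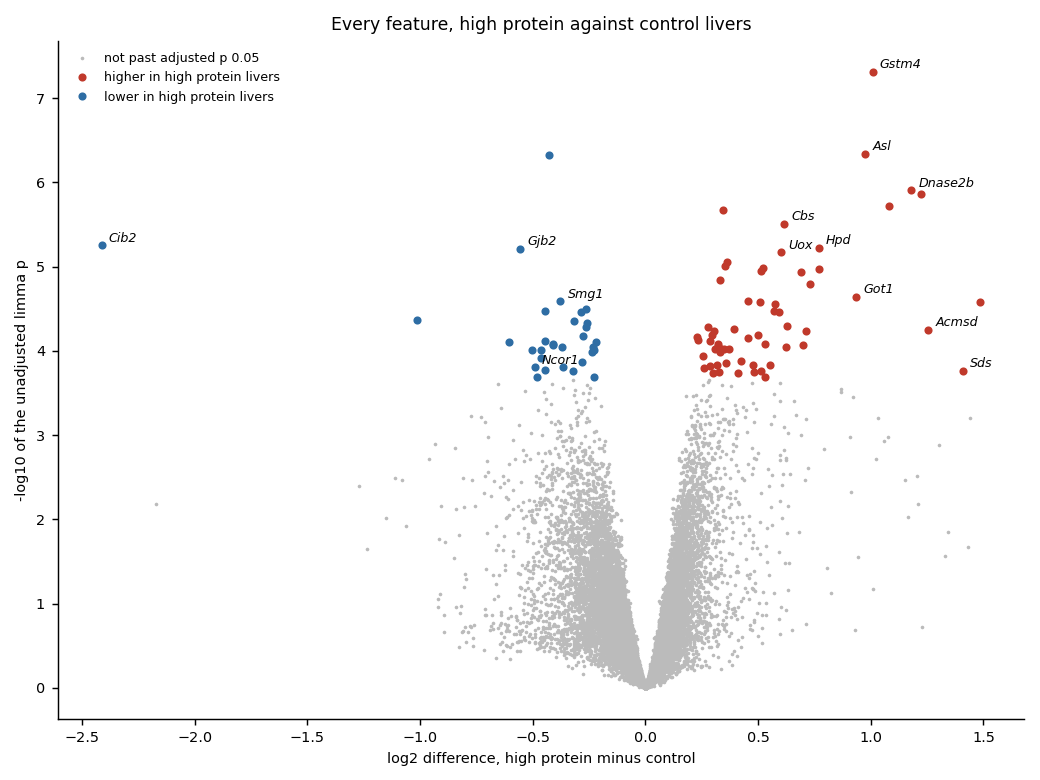
Log2 difference of high protein minus control livers on the x axis against -log10 of the unadjusted limma p on the y axis, 1 point for each of 22265 features. The 61 called rises are red, the 31 called falls blue and all other features grey. Gstm4 and Asl lie highest, and Cib2 has the lowest difference, -2.41.

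The number of calls depended on single livers and on the processing, while the direction of the named calls did not. Without control 6 there were 43 calls (30 higher, 13 lower), 40 of them among the 92. Among controls, omitting replicate 1 left 19 calls, replicate 2 left 25, replicate 5 left 60 and replicate 7 left 376. Among high protein livers, omitting replicate 6 left 17, replicate 2 left 22, replicate 4 left 29 and replicate 1 left 38. The share of rises among the calls moved as well: 26 of 55 when the background fit used every spot, 25 of 30 with median centring, 37 of 47 from Cy5 alone and 70 of 78 in the authors' deposited matrix. All 58 named calls kept their sign in each of these fits in which they were measured. They were chosen on the same arrays, so a kept sign was likely from the start.

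Genes of amino acid breakdown and urea synthesis held 13 of the 46 named rises. The 8 lists on this theme name 133 genes, of which 115 were measured. Of these, 13 rose and none fell, 11.3% against 0.413% of all features. Differences above 0 were found for 88 of the 115, and their median was 0.13 (0.096 without control 6), against -0.0097 for all features. For 14 of the 115 (12.2%) the groups did not overlap, high protein being higher, as they did for 0.499% of all features. Without control 6, 8 of the 13 were still called. With other livers left out in turn the number ranged from 4 (without control 1, high protein 2 or high protein 6) to 13 (without control 7). It was 5 with the slide as a fixed block, 8 with median centring or with the background fitted on every spot, and 7 from the processed signals, from Cy5 alone or with the 13 arrays alone. The difference was above 0 for all 13 genes in every one of these fits. These genes were likewise chosen on the same arrays, which made a kept sign likely.

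**Figure D2:**
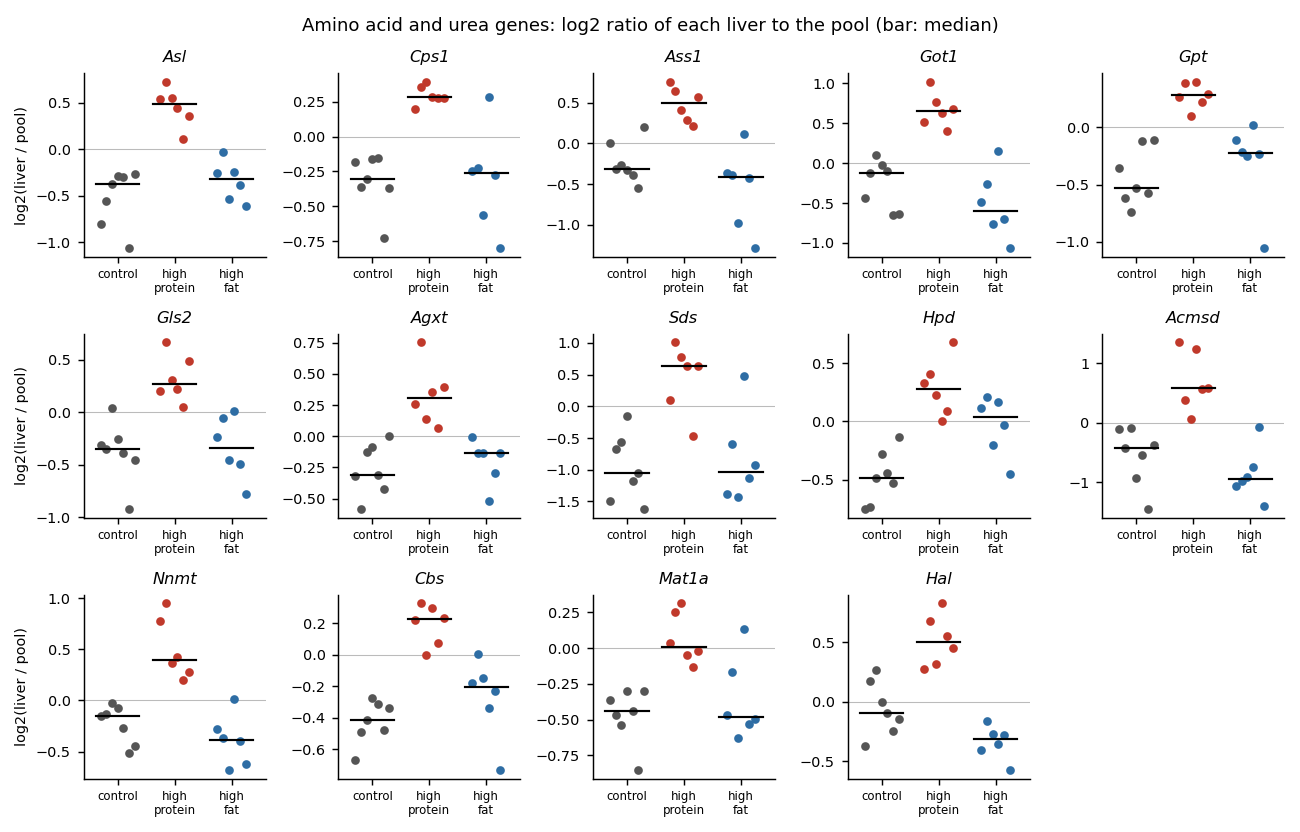
Log2 ratio of each liver to the pool (y axis) for 14 genes of amino acid breakdown and the urea cycle in 7 control, 6 high protein and 6 high fat livers (x axis). A point is 1 rat and a bar the group's median. In every panel except Sds the red points lie above all of the grey ones, and Ass1 alone did not pass the test.

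The urea cycle list had 8 measured members, all with differences above 0 and a median of 0.32. Asl and Cps1 rose and the other 6 did not pass. Asl encodes argininosuccinate lyase, which splits argininosuccinate into arginine and fumarate. Its log ratio lay between -1.07 and -0.27 (median -0.37) in the controls and between 0.11 and 0.73 (median 0.48) in the high protein livers. The difference was 0.97 ± 0.13 (SE, n = 7 control and 6 high protein, limma adjusted p = 0.00353), which is 1.96-fold. The ranges did not touch, and the call was kept with any one of the 13 livers left out. The Asl probe lies on rn4 chromosome 12 from 27712767 to 27713038. Cps1, the carbamoyl phosphate synthetase that brings ammonia into the cycle, lay between -0.73 and -0.16 (median -0.30) in control and between 0.20 and 0.39 (median 0.28) in high protein livers. It rose by 0.62 ± 0.13 (adjusted p = 0.0329). The 6 high protein livers were closely grouped, and the lowest control value belonged to control 6. Cps1 stayed past the threshold only without control 4, control 5 or control 7, and without control 6 its adjusted p was 0.0564 at a difference of 0.55.

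Ass1, which makes argininosuccinate, lay between -0.54 and 0.20 (median -0.31) in control and between 0.21 and 0.76 (median 0.49) in high protein livers. The 2 ranges were separate, yet the difference of 0.71 ± 0.18 did not pass (adjusted p = 0.083). Without control 7 it did pass (adjusted p = 0.0313). Nags, whose product N-acetylglutamate switches on the Cps1 enzyme, differed by 0.35 ± 0.12 (adjusted p = 0.192). Arg1, the arginase that releases urea, differed by 0.29 ± 0.19, with high protein livers between 0.022 and 0.88 (median 0.35). In all, 4 of 7 controls lay within or above that range. The ornithine carrier Slc25a15 differed by 0.25 ± 0.096. Otc, ornithine transcarbamylase, differed by 0.068 ± 0.094, and 5 of its 7 control livers reached the high protein range. Slc25a2, another ornithine carrier, was above background in 2 control livers and 1 high protein liver, and its difference was 0.05 ± 0.072.

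Of 15 measured genes of aminotransferases, glutamate and glutamine, 4 rose and none fell, with a median of 0.17. Got1, the cytosolic aspartate aminotransferase, lay between -0.65 and 0.10 (median -0.12) in control and between 0.40 and 1.02 (median 0.66) in high protein livers. Its difference was 0.93 ± 0.17 (adjusted p = 0.0236), or 1.91-fold. Gpt, the alanine aminotransferase, lay between -0.74 and -0.11 (median -0.53) in control and between 0.10 and 0.40 (median 0.28) in high protein livers, a difference of 0.71 ± 0.14 (adjusted p = 0.0315). For both genes the lowest high protein liver was above the pool, and no control reached it. Gls2, the liver glutaminase that frees ammonia from glutamine, lay between -0.92 and 0.039 (median -0.34) in control and between 0.055 and 0.67 (median 0.27) in high protein livers. Gls2 rose by 0.70 ± 0.14 (adjusted p = 0.0329), and control 6 was again its lowest value. Agxt, which transfers an amino group from alanine to glyoxylate, lay between -0.59 and 0.0033 (median -0.31) in control and between 0.065 and 0.75 (median 0.31) in high protein livers and rose by 0.59 ± 0.11 (adjusted p = 0.025). A second Agxt probe gave a difference of 0.52 ± 0.086. The mitochondrial enzyme Got2 differed by 0.18 ± 0.058 without passing (adjusted p = 0.169). Got1 was lost without control 1, high protein 2 or high protein 6 (adjusted p at most 0.0714), and Agxt also without control 2 or high protein 4 (at most 0.0706). Gpt passed only without control 4, 5 or 7 or high protein 3 or 5, and Gls2 only without control 3, 4 or 7 or high protein 5, with adjusted p values of up to 0.0887 and 0.101 otherwise.

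Sds, serine dehydratase, turns serine and threonine into keto acids and ammonia and had the largest named rise. Its level lay between -1.62 and -0.15 (median -1.05) in control and between -0.47 and 1.01 (median 0.64) in high protein livers. The difference was 1.41 ± 0.30 (adjusted p = 0.0453), or 2.65-fold. In total 5 of 6 high protein livers exceeded all controls, and 1 lay below the highest control. The call was kept only without control 4, control 7 or high protein 5, and the adjusted p reached 0.134 in the other omissions. No other of the 17 measured serine, threonine and glycine genes passed, and the median of the list was 0.091. Gldc and Gcsh, parts of the glycine cleavage system, differed by 0.40 ± 0.11 and 0.16 ± 0.053. A second Gldc probe gave 0.12 ± 0.11. Sardh, which demethylates sarcosine, and Sdsl, a relative of Sds, differed by 0.31 ± 0.084 and 0.31 ± 0.12 without passing.

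In tyrosine breakdown, all 8 measured genes had differences above 0, with a median of 0.34, and 1 rose. This was Hpd, which oxidises 4-hydroxyphenylpyruvate. It lay between -0.76 and -0.14 (median -0.49) in control and between 0.0057 and 0.68 (median 0.28) in high protein livers, and rose by 0.77 ± 0.12 (adjusted p = 0.0125). The groups did not overlap and the call was kept in all 13 omissions. Hgd, which opens the ring of homogentisate, also had separate ranges but did not pass, at 0.37 ± 0.093 (adjusted p = 0.0843). Tat, the tyrosine aminotransferase, varied widely among controls, between -0.996 and 0.41 (median -0.29), and differed by 0.64 ± 0.19 (adjusted p = 0.132). Fah, the last enzyme of the path, differed by 0.21 ± 0.07, from 12 arrays, since the spot of high protein 4 was left out. Gchfr, a regulator of tetrahydrobiopterin synthesis, differed by 0.18 ± 0.055.

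Of 12 measured genes of tryptophan and nicotinamide metabolism, Acmsd and Nnmt rose. Acmsd diverts tryptophan carbon from NAD synthesis to full oxidation. It lay between -1.45 and -0.081 (median -0.41) in control and between 0.063 and 1.35 (median 0.58) in high protein livers, with no overlap. Its difference was 1.25 ± 0.24 (adjusted p = 0.0315), or 2.39-fold, and it was lost without control 1 or 2 or high protein 1, 2, 4 or 6 (adjusted p at most 0.0728). Nnmt, which methylates nicotinamide, lay between -0.51 and -0.021 (median -0.16) in control and between 0.20 and 0.95 (median 0.39) in high protein livers. It rose by 0.73 ± 0.13 (adjusted p = 0.0178) and was kept in all omissions. The median of the list was 0.081, and Tdo2, the first enzyme of tryptophan breakdown, did not pass at 0.48 ± 0.14 (adjusted p = 0.126). Kmo and Haao, which act between Tdo2 and Acmsd, differed by 0.17 ± 0.075 and 0.19 ± 0.075.

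Cbs and Mat1a rose among 22 measured genes of methionine and cysteine metabolism, whose median was 0.12, or 0.061 without control 6. Cbs, cystathionine beta-synthase, commits homocysteine to cysteine. It lay between -0.66 and -0.28 (median -0.41) in control and between -0.0028 and 0.33 (median 0.23) in high protein livers, a difference of 0.62 ± 0.095 (adjusted p = 0.00866). Mat1a, the liver enzyme that makes S-adenosylmethionine, lay between -0.85 and -0.30 (median -0.44) in control and between -0.13 and 0.31 (median 0.0068) in high protein livers. It rose by 0.53 ± 0.12 (adjusted p = 0.0492). A second Mat1a probe gave 0.54 ± 0.15, with an adjusted p of 0.107 over all kept probes. Neither gene's groups overlapped, but Mat1a was kept only without control 7, and its adjusted p reached 0.145 in other omissions. Cbs was kept in all 13. Gnmt, which uses S-adenosylmethionine to methylate glycine, differed by 0.45 ± 0.11 (adjusted p = 0.0769), and Tst and Mpst of sulfur metabolism by 0.30 ± 0.078 and 0.31 ± 0.092, without passing.

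Hal, the histidine ammonia-lyase, was the rise among 12 measured genes of histidine, proline, lysine and arginine breakdown, whose median was 0.10, or 0.054 without control 6. It lay between -0.37 and 0.27 (median -0.095) in control and between 0.27 and 0.83 (median 0.50) in high protein livers. The difference was 0.57 ± 0.11 (adjusted p = 0.0236), and the highest control came close to the lowest high protein liver without reaching it. Hal was lost without control 1 or high protein 2, 4 or 6 (adjusted p at most 0.0754), and its second probe gave 0.32 ± 0.081 with an adjusted p of 0.089 over all kept probes. Oat, ornithine aminotransferase, had a larger difference of 1.06 ± 0.28 that did not pass (adjusted p = 0.0994). Its controls lay between -1.47 and 0.17 (median -0.51) and its high protein livers between -0.06 and 1.38 (median 0.36), so the groups overlapped. Its second probe gave 1.06 ± 0.23, with an adjusted p of 0.0494 over all kept probes. Gcdh of lysine breakdown differed by 0.56 ± 0.14 without passing, and by 0.11 ± 0.1 at its second probe.

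Over all features, 14.3% had an unadjusted p under 0.05, in either direction. None of 21 measured genes of branched-chain amino acid breakdown passed, and 6 had an unadjusted p under 0.05, all higher. Their median was 0.099, with single genes from -0.13 to 0.33. In the high fat livers, against the same controls, the median of this list was 0.13. Ivd, which oxidises the leucine product isovaleryl-CoA, differed by 0.33 ± 0.092 (adjusted p = 0.119), and Bckdhb, a subunit of the branched-chain keto acid dehydrogenase, by 0.26 ± 0.082. Hsd17b10 of isoleucine breakdown differed by 0.29 ± 0.074.

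Among 25 measured amino acid transporters 1 rose. Slc43a1, a carrier of large neutral amino acids, lay between -0.62 and -0.089 (median -0.47) in control and between -0.29 and 0.24 (median 0.12) in high protein livers. It rose by 0.51 ± 0.093 (adjusted p = 0.0236), with 5 of 6 high protein livers above every control. The call was lost without control 1 or 2 or high protein 1, 2 or 6 (adjusted p at most 0.0754). The aromatic amino acid carrier Slc16a10 differed by 0.61 ± 0.15 and the glutamine carrier Slc38a3 by 0.31 ± 0.091, neither past the test. The mitochondrial carrier Slc25a21, which moves 2-oxoadipate from lysine and tryptophan breakdown and belonged to no list, rose by 0.45 ± 0.09 (adjusted p = 0.0329). Its controls lay between -0.39 and -0.11 (median -0.20), 4 of 7 above background, and its high protein livers between -0.18 and 0.48 (median 0.30).

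Genes that cells raise through the transcription factor ATF4 when amino acids run short did not pass in either direction. At an unadjusted p under 0.05, met by 14.3% of all features, 1 of 18 measured was higher and 2 were lower. The median of the 18 was -0.046, or -0.0066 without control 6. Fgf21, a hormone secreted by the liver, lay between -0.18 and 0.46 (median 0.27) in control and between -0.67 and 0.31 (median -0.43) in high protein livers, a difference of -0.56 ± 0.14 (adjusted p = 0.0847). Asns, asparagine synthetase, differed by -0.40 ± 0.13. Its highest control value, 0.96, came from control 6. Chac1 and Trib3 differed by 0.34 ± 0.16 and 0.36 ± 0.28.

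Genes concentrated around the portal vein were compared with genes concentrated around the central vein. Of 16 measured periportal genes 5 rose (Sds, Asl, Gls2, Cps1 and Hal, all described above) and none fell. All 5 belong also to the amino acid and urea lists, so they are not a separate observation. The 5 are 31.2% of the list, against 0.413% of all features called. The median was 0.23 with these genes included. Of the 16, 11 were above 0, and single genes ran from -0.58 to 1.41. Apoa4, a lipoprotein gene of the same list, differed by -0.58 ± 0.16 without passing (adjusted p = 0.119). At an unadjusted p under 0.05, met by 14.3% of all features, 4 of 15 pericentral genes were higher and 1 lower. None of the 15 passed, and the median of the pericentral list was 0.18, or 0.11 without control 6. On the 3 slides that held both diets, the array medians of this list differed by 0.16, -0.22 and 0.47. Besides Oat, Cyp1a2 differed by 0.79 ± 0.21 and Aldh1a1 by -0.96 ± 0.27, with overlapping groups in both.

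Promoter sequences were read for the rises that share this theme. RefSeq (build GRCr8) gave a start site for 8 of the 13, and the 250 bases before it are shown for 4 of them, Asl as the amino acid gene with the smallest p and Got1, Gls2 and Hpd because they hold the letters TGACNNNGC. These letters are the core of the antioxidant response element, searched on both strands, and are printed in capitals. The 4 windows lie at chr12:32295658-32295907 (plus strand, Asl), chr1:252329872-252330121 (minus strand, Got1), chr7:1201629-1201878 (plus strand, Gls2) and chr12:39041996-39042245 (plus strand, Hpd).
Asl: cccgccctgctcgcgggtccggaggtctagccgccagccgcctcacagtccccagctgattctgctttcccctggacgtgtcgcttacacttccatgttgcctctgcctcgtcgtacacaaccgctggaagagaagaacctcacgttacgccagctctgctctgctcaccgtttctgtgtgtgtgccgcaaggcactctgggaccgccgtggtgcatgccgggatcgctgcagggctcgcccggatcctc
Got1: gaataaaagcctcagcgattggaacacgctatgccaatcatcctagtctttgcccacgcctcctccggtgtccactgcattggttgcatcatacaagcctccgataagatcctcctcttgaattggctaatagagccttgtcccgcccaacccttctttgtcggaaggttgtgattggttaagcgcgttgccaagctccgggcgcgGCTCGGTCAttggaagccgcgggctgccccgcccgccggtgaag
Gls2: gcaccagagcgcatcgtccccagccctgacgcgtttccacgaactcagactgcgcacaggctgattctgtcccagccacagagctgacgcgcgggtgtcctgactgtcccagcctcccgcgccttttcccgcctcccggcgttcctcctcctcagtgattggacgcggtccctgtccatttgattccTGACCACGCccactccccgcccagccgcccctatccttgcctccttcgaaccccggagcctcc
Hpd: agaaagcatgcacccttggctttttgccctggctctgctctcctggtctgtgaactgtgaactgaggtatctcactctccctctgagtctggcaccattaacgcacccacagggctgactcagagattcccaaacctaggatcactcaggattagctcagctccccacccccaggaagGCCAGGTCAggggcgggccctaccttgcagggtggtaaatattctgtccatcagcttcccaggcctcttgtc
The core occurred in 3 of these 8 promoters (37.5%), in 8 of 37 promoters over all named rises (21.6%) and in 0 of 10 over the named falls. It occurred in 12.5% of the promoters of the 8812 measured named genes, from which the calls come, and in 10.2% of all 27457 promoters of the table. With so few promoters these shares are a description. Of the other letters searched on both strands, the full cAMP response element TGACGTCA occurred in 0 of the 37 rises, against 2.58% of the measured genes. Its 5-letter part TGACG, which every full element also contains, occurred in 9 (24.3%, against 27.2%). The short site of the glucocorticoid receptor, TGTTCT, occurred in 5 (13.5%, against 11.3%) and the C/EBP site TTGCNNAA in 4 (10.8%, against 8.28%). The E-box CACGTG occurred in 1 (2.70%, against 8.11%), the TATA box TATAAA in 4 (10.8%, against 8.16%) and the C/EBP-ATF site TGATGNAAT in 0 (against 0.59%). In the 8 amino acid promoters, TGACG and TGTTCT each occurred in 2 (25%), and these other letters in none. Among other rises, the windows of Gstm4 and Nqo1 held no antioxidant response element core.

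Glutathione transferases join glutathione to reactive compounds so that they can be excreted. Of 29 measured genes of glutathione transfer and conjugation 2 rose, both of the mu class, and the median was 0.05. Gstm4 had the smallest p of all features. It lay between -0.86 and -0.53 (median -0.65) in control and between 0.15 and 0.67 (median 0.28) in high protein livers, a wide gap between the groups. The difference was 1.01 ± 0.12 (adjusted p = 0.00107), or 2.01-fold, and was kept in all 13 omissions. Its probe, on rn4 chromosome 2 from 203606356 to 203606415, is listed in the array design under an older name, MGC108896. Gstm7 lay between -0.69 and -0.033 (median -0.39) in control and between -0.017 and 0.49 (median 0.33) in high protein livers, where the highest control and the lowest high protein liver nearly met. It rose by 0.69 ± 0.12 (adjusted p = 0.0141) and was lost without high protein 6 (adjusted p = 0.0551). Mu class genes are near copies of each other, and how far these probes tell them apart was not tested. Gstm2, of the same class, differed by 0.26 ± 0.082 without passing.

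Nqo1, a quinone reductase and a common target of the antioxidant regulator NRF2, was the rise among 20 measured genes of that programme. It lay between -0.51 and 0.0083 (median -0.35) in control and between -0.19 and 0.54 (median 0.33) in high protein livers, and rose by 0.63 ± 0.12 (adjusted p = 0.0311). A single control, control 5, reached the high protein range. The median of the list was 0.0013, or 0.0063 without control 6, and Akr7a3 differed by -0.52 ± 0.19 and Gpx4 by 0.19 ± 0.068. Nqo1 passed only without control 4, 5, 6 or 7 or high protein 3 or 5 (adjusted p up to 0.0888 otherwise). None of 31 measured phase I enzymes passed, and their median was 0.11. Fmo5, a flavin monooxygenase, had the largest difference of them, 1.03 ± 0.25 (adjusted p = 0.0828), with controls between -1.65 and 0.14 (median -1.28). Akr1c3, an aldo-keto reductase of steroids that belonged to no list, rose by 0.55 ± 0.12 (adjusted p = 0.0431).

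Several rises lay outside these themes. Dnase2b, an acid deoxyribonuclease, lay between -1.003 and -0.29 (median -0.37) in control and between 0.14 and 1.35 (median 0.53) in high protein livers. It rose by 1.18 ± 0.17 (adjusted p = 0.00619), or 2.26-fold, with no overlap and in all 13 omissions. Uox, urate oxidase, which breaks down the uric acid of purines, lay between -0.68 and -0.26 (median -0.41) in control and between 0.0066 and 0.32 (median 0.14) in high protein livers. It rose by 0.60 ± 0.098 (adjusted p = 0.0126), and the call was kept in all omissions.

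Of the plasma protein genes 1 of 34 measured rose. Crp, C-reactive protein, differed by 0.43 ± 0.089 (adjusted p = 0.0406), with controls between -0.50 and -0.021 (median -0.18) and high protein livers between -0.10 and 0.44 (median 0.23). Its second probe gave 0.55 ± 0.1. Serpina1, the alpha-1-antitrypsin gene, did not pass at 0.37 ± 0.092 (adjusted p = 0.0843). In the list of mTOR, lysosome and autophagy genes 1 of 30 rose. This was Hexa, a lysosomal hexosaminidase subunit, by 0.36 ± 0.061 (adjusted p = 0.0141). All 6 high protein livers exceeded the controls for Hexa, and it was kept in all omissions.

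Rgs4, which shortens G protein signals, lay between -0.25 and -0.0048 (median -0.15) in control and between 0.0072 and 0.82 (median 0.40) in high protein livers and rose by 0.52 ± 0.088 (adjusted p = 0.0141). Its relative Rgs5, also a marker of pericytes, rose by 0.45 ± 0.083 (adjusted p = 0.0236). The other 10 measured markers of stellate cells and matrix did not pass, and that list's median was 0.13. C5ar2, a receptor of complement fragment C5a, rose by 0.37 ± 0.076, and the small GTPase Rnd2 by 0.48 ± 0.10. Farp2, an exchange factor of small GTPases, rose by 0.33 ± 0.058, and the vesicle scission protein gene Dnm3, above background in 1 control liver and 4 high protein livers, by 0.33 ± 0.07.

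The remaining named rises were between 0.23 and 0.57. Nhlrc1, a ubiquitin ligase of glycogen metabolism, rose by 0.57 ± 0.11 with no overlap, and Ilvbl, an enzyme of 2-hydroxy fatty acid breakdown, by 0.51 ± 0.088 with 1 control in the high protein range. Ucma, known as a cartilage matrix gene, rose by 0.53 ± 0.11. Preb and Trappc1, which act in transport between the endoplasmic reticulum and the Golgi, rose by 0.41 ± 0.089 and 0.26 ± 0.053. A second Trappc1 probe gave 0.17 ± 0.054 and did not pass. Both GPI anchor genes Gpaa1 and Pigo rose, by 0.28 ± 0.053 and 0.23 ± 0.045. Timmdc1, an assembly factor of respiratory complex I, rose by 0.26 ± 0.056, and the zinc carrier Slc30a6 by 0.31 ± 0.06. Med20 of the Mediator complex and Hexim2, an inhibitor of transcription elongation, rose by 0.30 ± 0.065 and 0.29 ± 0.057. Trmt44, a tRNA methyltransferase, rose by 0.32 ± 0.065. Dap, Pih1d1, Fam3a and 4933427D14Rikl rose by 0.39 ± 0.076, 0.32 ± 0.065, 0.23 ± 0.047 and 0.35 ± 0.071. Ilvbl was kept in all omissions. The other rises of this paragraph, with Akr1c3, Slc25a21, Crp, Rgs5, C5ar2, Rnd2, Farp2 and Dnm3, were all lost without control 1 and, Farp2 excepted, without high protein 6, and each was lost in 2 to 11 of the 13 omissions (adjusted p at most 0.126, Akr1c3). Of all 58 named calls 13 were kept in each of the 13 omissions of 1 liver, 11 rises and 2 falls.

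**Figure D3:**
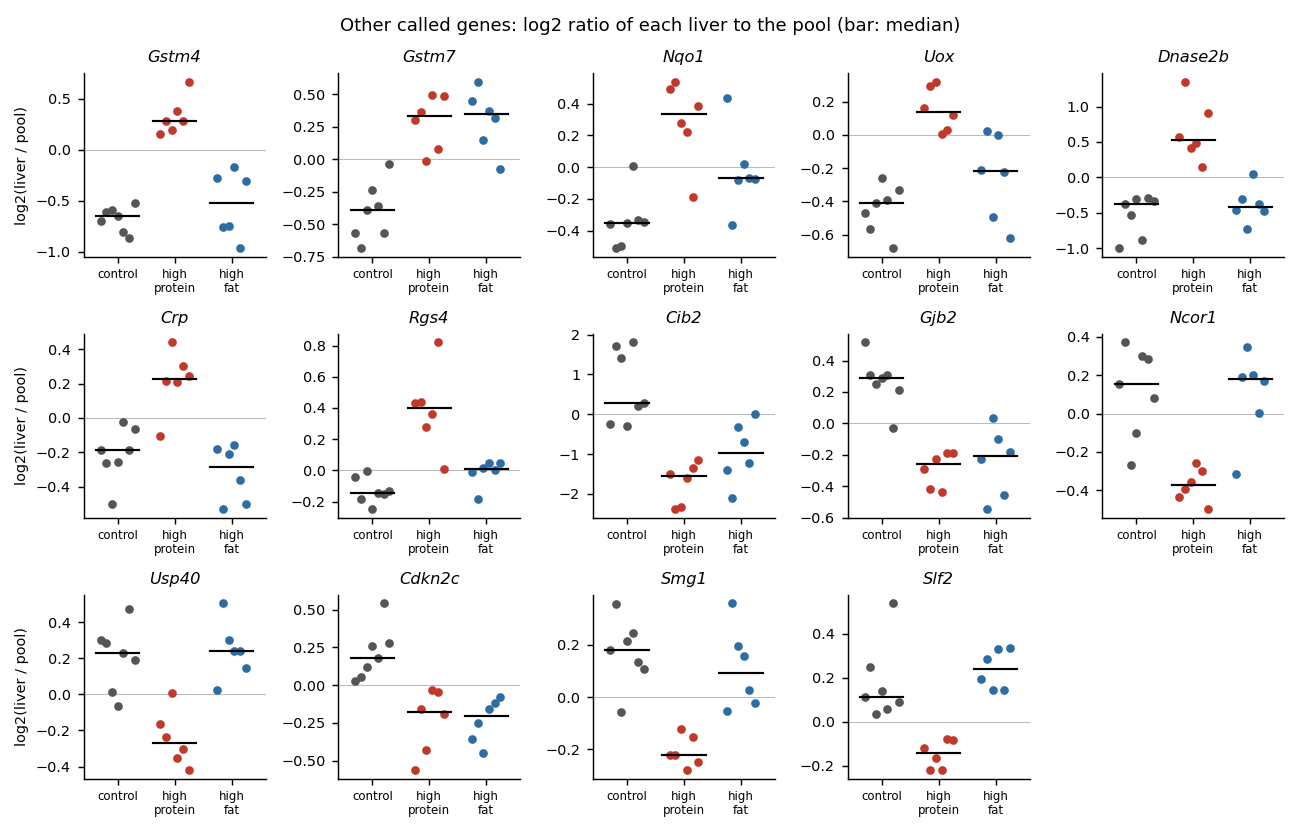
Log2 ratio of each liver to the pool (y axis) for 14 called genes outside amino acid breakdown, in 7 control, 6 high protein and 6 high fat livers (x axis). A point is 1 rat and a bar the group's median. Gstm4 has the widest gap between control and high protein livers among the rises, and Cib2 spans over 4 log2 units.

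The falls were fewer, and most were small. Cib2, a calcium- and integrin-binding protein gene, had the largest difference of any call. It lay between -0.29 and 1.80 (median 0.27) in control and between -2.39 and -1.15 (median -1.55) in high protein livers. Cib2 fell by 2.41 ± 0.39 on the log2 scale (adjusted p = 0.0125), or 5.33-fold. No high protein liver reached the lowest control, and the call was kept in all omissions. Gjb2, the gap junction protein connexin 26, lay between -0.027 and 0.52 (median 0.29) in control and between -0.44 and -0.19 (median -0.26) in high protein livers. It fell by 0.56 ± 0.091 (adjusted p = 0.0125) and was also kept in all omissions. With the slide as a fixed block none of the 12 named falls was called, at adjusted p = 0.0801 for Cib2 and 0.0809 for Gjb2.

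The other named falls were smaller. Ncor1, a corepressor of nuclear receptors, lay between -0.27 and 0.37 (median 0.15) in control and between -0.50 and -0.26 (median -0.37) in high protein livers and fell by 0.49 ± 0.1 (adjusted p = 0.0434). Its other probes gave -0.26 and -0.21, and neither passed. Smg1, a kinase of nonsense-mediated RNA decay, fell by 0.38 ± 0.072 (adjusted p = 0.0236) with separate ranges. The deubiquitinase Usp40 fell by 0.45, the DNA repair adaptor Slf2 by 0.32, the zinc finger gene Zfp281 by 0.28 and the histone chaperone subunit Ubn2 by 0.23. Cdkn2c, an inhibitor of cell cycle kinases, fell by 0.45. Dennd4c, a regulator of vesicle traffic, and Plpp6, a lipid phosphatase, fell by 0.26 and 0.24. Other probes of Dennd4c gave -0.29 and -0.10, and neither passed. Adjusted p values of these 7 genes lay between 0.0311 and 0.0492. Every gene of this paragraph was lost without control 1 and without high protein 6, and in 5 to 11 of the 13 omissions (adjusted p at most 0.129, Slf2). In the authors' deposited matrix just 3 of the 12 named falls were called.

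A further 34 calls were probes with no gene name here, 15 higher and 19 lower. The 3 largest rises were A_44_P278659, described in the array design as a splice variant of a calcium-activated potassium channel, by 1.49 ± 0.27 (adjusted p = 0.0236), A_44_P752200 by 1.22 ± 0.18 (adjusted p = 0.00619) and A_44_P864923 by 0.77 ± 0.13. The first of these was above background in 4 of 7 control livers. In the high fat livers it differed from control by 2.03 (limma adjusted p = 0.000259). High protein minus high fat was -0.55 ± 0.28 for it (adjusted p = 0.295). The 3 largest falls were A_42_P644800 by 1.01 ± 0.19, A_44_P1031285 by 0.61 ± 0.12 and A_44_P962319 by 0.50 ± 0.1. A_44_P792577, named here because it had the smallest p of all falls, fell by 0.43 ± 0.058 (adjusted p = 0.00353) with separate groups. Of the 6 probes with the largest differences, 5 were lost without high protein 6, and without control 1 4 of these were, A_44_P864923 excepted (adjusted p at most 0.1). A_44_P752200 was kept in all omissions and lay between -1.33 and -0.12 (median -0.44) in control and between 0.41 and 1.01 (median 0.63) in high protein livers. It lies on rn4 chromosome 13 from 40545765 to 40545824, close to the Acmsd probe (40547366 to 40547425) and on the same strand. Whether both measure 1 transcript was not tested, so they may not be separate rises. Of the 15 rises 4 are described in the design as similar to phosphoglycerate mutase 1, a glycolytic enzyme, with differences from 0.29 to 0.32. Of the 2 kept probes of Pgam1 itself, the brighter gave 0.13 ± 0.046 (adjusted p = 0.189) and the other 0.32 ± 0.063, with an adjusted p of 0.0324 over all kept probes. These probes may measure 1 transcript or several. A further 2 are described as similar to glutathione transferase alpha-4 (0.33 and 0.36) and 1 as similar to thiopurine methyltransferase (0.33). These groups were noticed after the values were seen.

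The 6 lists of carbohydrate, lipid and sterol genes held no call. They had 144 measured genes, with a median of 0.034, or -0.0033 without control 6. At an unadjusted p under 0.05, met by 14.3% of all features, the gluconeogenesis list had 1 higher and 2 lower of 24 genes. The glycolysis and fructose list had 2 higher of 24 and the fatty acid synthesis list 1 higher of 23. The fatty acid oxidation list had 1 higher and 1 lower of 29, and the cholesterol list 2 higher and 1 lower of 25. The bile acid and sterol transport list had 3 higher and 2 lower of 19. Pc, pyruvate carboxylase, differed by -0.32 ± 0.10, Fbp1, fructose bisphosphatase, by 0.29 ± 0.096, and Slc37a4, the glucose 6-phosphate carrier, by -0.23 ± 0.095. Scd, which desaturates fatty acids, differed by -0.64 ± 0.40, with controls between -0.12 and 1.48 (median 0.82) and high protein livers between -0.75 and 0.94 (median 0.074). Decr1 of fatty acid oxidation differed by -0.23 ± 0.096. In the cholesterol list 21 of 25 genes were above 0 and the median was 0.20, or 0.13 without control 6, and Hsd17b7 and Mvk differed by 0.49 ± 0.14 and 0.34 ± 0.11. Control 6 was the lowest control for both. The array medians of the cholesterol list differed by -0.12 and -0.10 on the 2 shared slides without control 6 and by 0.78 on the slide whose only control was control 6. Srebf2, the regulator of that pathway, differed by -0.19 ± 0.056, and every high protein liver lay below every control, but a second probe gave -0.031. Among 19 bile acid and sterol transport genes, Cyp7b1, an oxysterol hydroxylase, differed by 0.92 ± 0.21 (adjusted p = 0.0651), and the bile acid carrier Slc10a1 by -0.21 ± 0.063.

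The lists of oxidative phosphorylation, proteasome and circadian clock genes held no call. None of 41 oxidative phosphorylation genes passed, and their median was 0.06. At an unadjusted p under 0.05, 6 were higher, and 14.3% of all features met that threshold in either direction. Uqcrc1, a subunit of complex III, had the largest difference (0.34 ± 0.092). None of 32 proteasome and ubiquitin genes passed either, at a median of 0.066, although every high protein liver exceeded every control for Psmd13 (0.24 ± 0.072). None of 16 circadian clock genes had even an unadjusted p under 0.05, and their median was 0.028, or 0.054 without control 6.

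**Figure D4:**
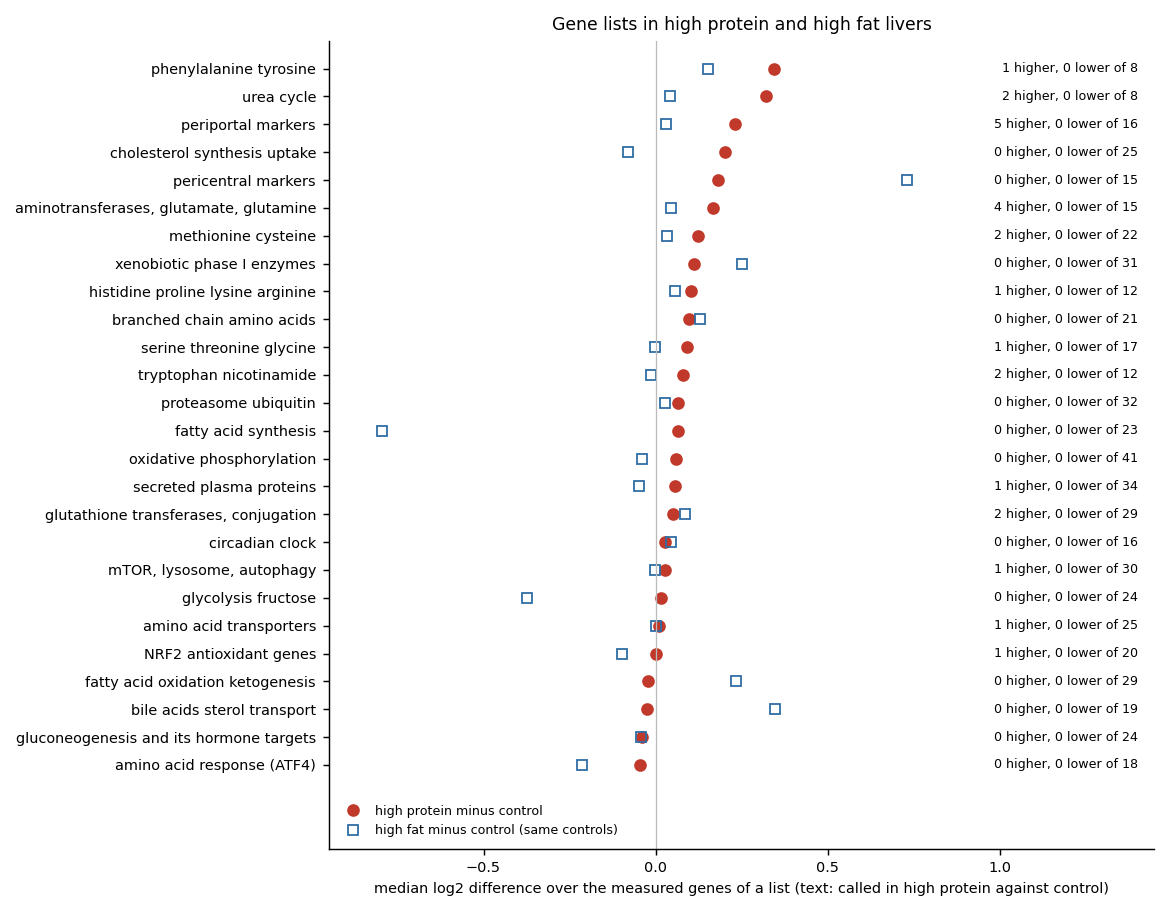
Median log2 difference (x axis) over the measured genes of 26 lists (y axis), for high protein minus control (red circles) and high fat minus control (open blue squares), which share the control livers. The text at the right gives how many genes were called in high protein against control. Tyrosine, urea and periportal lists lie furthest right for high protein, at 0.34, 0.32 and 0.23, and no red circle is below -0.05.

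The high fat livers, measured against the same 7 controls, are given side by side. They share the control rats, so likeness between both differences is no independent result. Of the 13 amino acid and urea genes that rose with high protein, high fat differences ran from -0.30 for Acmsd to 0.45 for Hpd. Asl, Cps1 and Sds had high fat differences of 0.18, 0.018 and 0.13. Set directly against the high fat livers, 32 of the 46 named rises were also higher and 8 of the 12 named falls also lower by limma at an adjusted p under 0.05. In that contrast 3.62% of all features were higher and 3.39% lower. It shares the high protein livers with the main comparison. Gstm4 was higher than in high fat livers by 0.87 ± 0.12 (adjusted p = 0.000178), Asl by 0.80 ± 0.14 (adjusted p = 0.00113) and Acmsd by 1.56 ± 0.25 (adjusted p = 0.000695).

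For other calls the high fat livers lay near the high protein livers. Gstm7 had a difference from control of 0.69 ± 0.12 with high protein and 0.71 with high fat, and the 2 diets differed from each other by -0.017 ± 0.12 (adjusted p = 0.972). Rgs5 had 0.45 ± 0.083 and 0.60, Slc43a1 0.51 ± 0.093 and 0.56, and Rnd2 0.48 ± 0.10 and 0.43. Among the falls, Gjb2 had -0.56 ± 0.091 and -0.51, Cdkn2c -0.45 ± 0.096 and -0.44, and Cib2 -2.41 ± 0.39 and -1.65. For these 7 genes high protein and high fat livers did not differ at an adjusted p under 0.05, which does not show that they were alike. Over all calls, 10 rises and 5 falls were also called in the same direction in high fat against control, where 1.84% of all features were called higher and 1.79% lower, and no call was reversed.

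**Figure D5:**
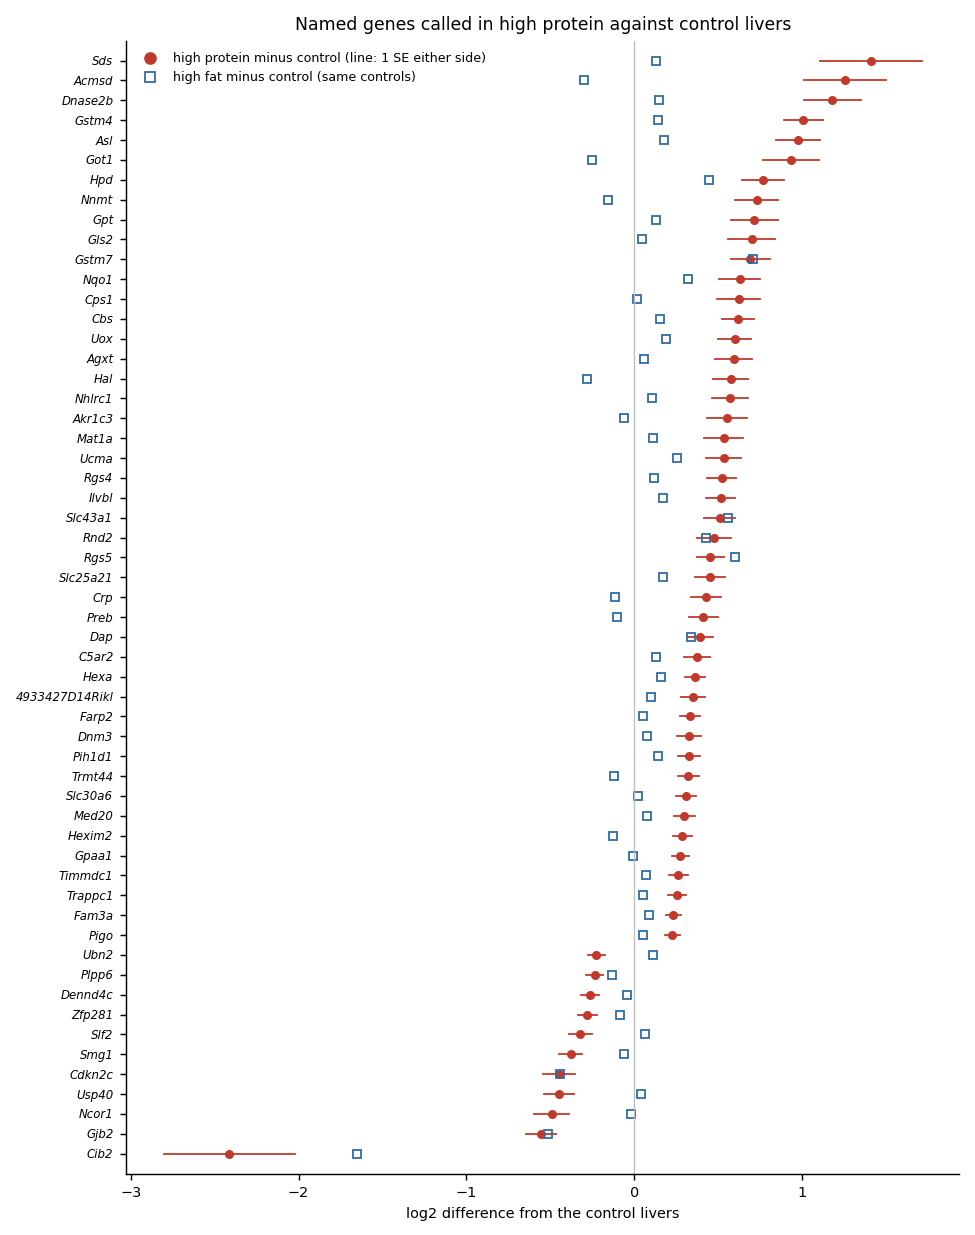
Log2 difference from the control livers (x axis) for 56 named genes called in high protein against control (y axis). Red circles are high protein with a line of 1 SE either side, and open blue squares are high fat against the same controls. Acmsd, Got1 and Hal have squares left of 0, while Gstm7, Slc43a1, Rgs5, Gjb2 and Cdkn2c have squares near their circles.

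Slides were checked as batches. Livers of both diets shared 3 of the 5 slides, and on each of these 3 the difference had the main sign for all 58 named calls. These genes were chosen on the same arrays, and 55 of the 65 uncalled genes that the rule names also kept their sign on the 3 slides. Asl differed by 1.29, 0.70 and 1.52 on these slides, Gstm4 by 0.97, 0.95 and 1.30 and Cib2 by -1.30, -2.90 and -1.94. On the last of them the only control was control 6. With the slide as a fixed block 20 features were called, 17 higher and 3 lower, 10 of them among the 58 named calls. With the slide as a random block 97 were called.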

How the data were processed

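Liver RNA of 19 rats was hybridised to Agilent two-colour rat arrays on 5 slides, 1000 ng of RNA per animal, each rat in Cy5 against the Cy3 pool, with no dye swap. The deposited scanner files hold mean and background intensity per spot, per the file headers written by Agilent Feature Extraction 10.5.1.1. From these, 40 spots with a local background over 50 units above their own signal were dropped, normexp (offset 50) and loess were applied, and control spots and outlier spots were left out. Probes well above background in Cy5 on at least 6 of the 19 arrays were kept (25292 probes), and the brightest kept probe stood for a gene, giving 22265 features. Dropped spots are missing, not imputed, and no called feature has any.

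The authors' deposited matrix holds log2 values of the same arrays. Each column has a median of 8.205, and its normalization and its handling of the pool are not given in the sources used here. It served as an alternative.

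Gene names came from RefSeq by symbol (5155 probes), synonym (3468), accession (10912) or the name in the array design (112). Probe positions are those of the array design, build rn4. Promoters are from RefSeq, build GRCr8, and no coordinate was converted.

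One limma model (limma 3.58.1, R 4.3.3) with a mean per diet was fitted to all 19 arrays, with empirical Bayes moderation and Benjamini-Hochberg adjustment over all features. It was also run on simulated data with independent noise for each feature. These held no slide effect and no outlying liver, so they do not test how the model handles either. SE is the model's moderated error. Named are all called genes (a few single-gene results are not reported here), up to 5 genes with the smallest p in each list, all urea cycle genes and up to 6 called probes without a name. The comparison, the lists and the tests were chosen with earlier results of these data known, so lists are described by counts and medians. Numbers of like-named rats did not pair the samples: the correlation of deviations ran from -0.057 to 0.109 over 6 pairs.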

Additional observations from a re-analysis of the deposited data

Results flagged for a closer look

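A gap of 1 liver from the rest of its group was looked for in 254 groups of gene values and 56 groups of list medians. It was found in 11 and 4 of them, and chance alone gives about 1 in 20 groups. Of these 15 gaps 7 belonged to control 6, 4 of them in genes.

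In control 6, Cps1 lay at -0.73, against -0.37 to -0.16 in the other controls. The cholesterol genes Hsd17b7 and Mvk lay at -0.58 and -0.58, below -0.17 and -0.29 as the lowest of the others. Slf2 lay at 0.54, above 0.25. Control 6 was also low in the median of the serine, threonine and glycine list (-0.28) and of the bile acid list (-0.31), and high in that of the lymphocyte markers (2.26, against at most -0.53). In the median of each of the 8 amino acid and urea lists it was the lowest control. For the urea cycle it lay at -0.52, against at least -0.28 in the other controls. Of these 8 lists, the gap was large enough to be flagged only for serine, threonine and glycine.

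In control 5, Nqo1 lay at 0.0083, above -0.33 as the highest of the others. In control 7, Gchfr lay at 0.0049 and Bckdhb at 0.079, above -0.21 and -0.13.

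Among high protein livers, Preb lay at 0.57 in replicate 3, against at most 0.24 in the others, and Gldc at 0.0036 in the same liver, against at least 0.37. In replicate 4, Chac1 lay at 1.08, against at most 0.29, and the mTOR, lysosome and autophagy list had a median of -0.095, against at least -0.0023. In replicate 6, Hsd17b10 lay at 0.40, against at most 0.068.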

How the results depend on the processing

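The number of calls, in all or in 1 direction, moved by more than 1.5 times under 9 other ways of processing. Called, higher and lower features numbered 55, 26 and 29 with normexp fitted on every spot, 42, 30 and 12 from the scanner's processed signals, 30, 25 and 5 with median centring, 47, 37 and 10 from Cy5 alone, 32, 24 and 8 with the 13 arrays alone, 243, 158 and 85 with array weights, and 20, 17 and 3 with the slide as a fixed block. In the authors' matrix 78 were called, 8 of them lower. Leaving out 1 liver gave 17 to 376 called, 14 to 227 higher and 3 to 149 lower. Over every fit made, the 58 named calls kept their direction in 1621 of 1621 values. Their choice on the same arrays made this likely. In 1 of the fits, a further scaling between arrays changed spot brightness alone and left the log ratios as they were. The same 92 features had to be called, so that fit is no check. It gave 58 of the 1621 values. Slc25a2, which was not called, turned to -0.0030 with the slide as a fixed block. The causes were not tested. No scaling moved the median of all features by over 0.1.

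With the replicate number as a block, limma called 0 features, 0 higher and 0 lower, while 3292 had an unadjusted p under 0.05. The numbers did not pair the samples: like-numbered rats had a mean correlation of 0.041 and unlike-numbered rats of -0.0075.

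Signal over background sets the limit for dim probes: 56 of 58 named calls were above it on all 13 arrays. Ratios to a pool without a dye swap carry any dye bias common to all arrays, which cancels between diets.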
